A study of Mus musculus with 3 samples.

Results

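Spindle assembly and cytokinesis genes encode the proteins that build the mitotic spindle and then divide the cell. The 10 genes studied here were chosen by symbol, not by a measured value, but with earlier results of these data known. They are Tpx2, Hmmr, Ckap5, Ckap2, Ckap2l, Nusap1, Prc1, Anln, Ect2 and Racgap1. All of them were found among the 55450 genes of GENCODE M21 (21951 protein-coding). Their peaks were taken from chromatin immunoprecipitation (ChIP) of mouse embryonic cortices at E13.5, with 1 library for NF-Y-ChIP, made with an antibody to the NF-YC subunit, and 1 library for H3K4me3-ChIP. An input library was sequenced as well, and no peak list of it was used here. No genotype, strain, treatment or number of pooled embryos is given in the labels, and the groups differ only in the antibody. A peak was assigned to a gene when it overlapped the gene or the 5 kb upstream of it by at least 1 bp. Which peak list belongs to which antibody was given together with the choice of genes, not by the labels. The display score goes with it, following the p-value in the 733 peaks of NF-Y-ChIP and the q-value in the 18816 peaks of H3K4me3-ChIP. The authors' thresholds were on p and on q, respectively.

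NF-Y is a trimer of NF-YA, NF-YB and NF-YC that binds the CCAAT box, most often in the proximal promoter. H3K4me3 is a histone mark of active and poised promoters. During mitosis, spindle assembly factors nucleate, stabilise and crosslink microtubules around the chromosomes. After the chromosomes separate, proteins of the spindle midzone and the contractile ring place and close the cleavage furrow. Apical progenitors of the embryonic cortex divide at the ventricular surface, and the orientation and completion of these divisions bear on how many progenitors are kept.

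Of the 10 genes, 4 had an NF-Y-ChIP peak and all 10 had an H3K4me3-ChIP peak. The NF-Y-ChIP peaks were at Hmmr, Ckap5, Racgap1 and Ect2, and each lay at the gene start. By the same rule 3.69% of all protein-coding genes had an NF-Y-ChIP peak and 65.4% had an H3K4me3-ChIP peak. Among the protein-coding genes with H3K4me3, 5.60% had NF-Y-ChIP. The 10 genes were picked as a list of known mitotic genes with earlier results of these data at hand, so the 40.0% is a description of the list. There was 1 library per antibody, and therefore no replicate error and no test. The read depth behind the peaks is unknown, so a gene without a peak is one without a call at this depth and threshold. The cortex was used as bulk tissue, so a peak in few cells and a weaker peak in many cells cannot be told apart. As a check of the tissue, the cortical marker genes Emx1, Emx2, Pax6, Sox2, Eomes, Tbr1 and Neurod6 were marked by H3K4me3-ChIP no more than 1 kb from an annotated transcription start site (TSS), and of 10 genes of other tissues and cell types only Col1a1, a collagen gene of fibroblasts, was marked.

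**Figure D1:**
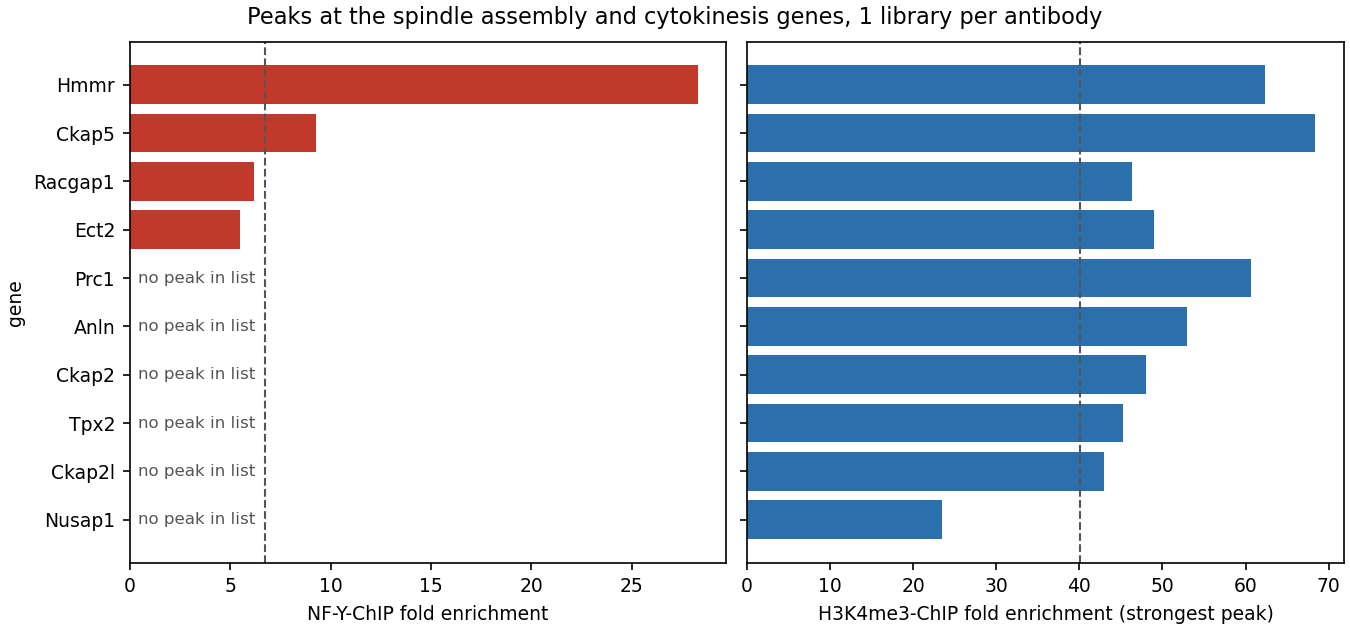
Bars give the fold enrichment of the NF-Y-ChIP peak (left) and of the strongest H3K4me3-ChIP peak (right) of each of the 10 genes, with 1 library per antibody and no error. The dashed lines are the medians of all NF-Y-ChIP peaks (6.75) and of the strongest H3K4me3-ChIP peak per protein-coding gene that has one (40.1). Hmmr stands far above the other NF-Y-ChIP peaks, and Nusap1 is the only gene below the H3K4me3-ChIP line.

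The upstream sequences of the 4 genes with an NF-Y-ChIP peak are shown because they hold the upstream boxes inside these peaks. They are from the GRCm38 reference, on the strand of the gene and 5′ to 3′, and end at the base before the gene start. Capitals mark CCAAT, or ATTGG where the box lies on the opposite strand. The boxes of Ckap5 and Ect2 at the gene start run past or lie beyond the end of these sequences and are not marked. Hmmr is given from 200 bp upstream (chr11:40733423-40733622, minus strand) and the others from 130 bp upstream, Ckap5 at chr2:91526632-91526761 on the plus strand, Racgap1 at chr15:99651657-99651786 and Ect2 at chr3:27153879-27154008, both on the minus strand.
Hmmr: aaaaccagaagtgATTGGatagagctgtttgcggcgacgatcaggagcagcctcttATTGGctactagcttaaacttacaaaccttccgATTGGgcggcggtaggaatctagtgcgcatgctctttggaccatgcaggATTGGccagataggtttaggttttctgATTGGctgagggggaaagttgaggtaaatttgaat
Ckap5: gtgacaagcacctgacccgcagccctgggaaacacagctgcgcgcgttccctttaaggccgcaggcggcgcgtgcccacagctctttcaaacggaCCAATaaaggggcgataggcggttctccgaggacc
Racgap1: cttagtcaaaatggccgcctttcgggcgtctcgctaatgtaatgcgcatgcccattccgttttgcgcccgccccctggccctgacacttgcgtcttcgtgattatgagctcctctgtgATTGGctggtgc
Ect2: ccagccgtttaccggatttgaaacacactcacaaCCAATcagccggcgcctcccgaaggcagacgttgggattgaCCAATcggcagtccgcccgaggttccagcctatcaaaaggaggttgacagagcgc

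Hmmr encodes a microtubule-associated protein of the spindle poles that works with Tpx2, and it had the strongest NF-Y-ChIP peak of the list. The peak (chr11:40733352-40733740, 389 bp) had a fold enrichment of 28.3 over the local background, rank 7 of 733, with a −log10 p-value of 76.4 and a −log10 q-value of 69.7. Its summit was 170 bp upstream of the start of Hmmr, outside the gene. The start of Nudcd2, a protein-coding gene on the opposite strand whose product has been linked to protein folding with Hsp90, was 245 bp away, and the same summit was 75 bp upstream of it. The peak therefore cannot be ascribed to Hmmr rather than Nudcd2. The sequence between the gene starts holds 5 boxes in the 200 bp upstream of Hmmr, with their first bases at −187, −144, −111, −62 and −35 bp from the gene start. All 5 read ATTGG on the Hmmr strand, and their spacing was 43, 33, 49 and 27 bp. The box nearest the summit was centred 15 bp from it, and another 28 bp from it.

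Ckap5, the microtubule polymerase also known as ch-TOG, came next among the 10 genes. Its NF-Y-ChIP peak (chr2:91526625-91526829, 205 bp) had a fold enrichment of 9.26, rank 157, and a −log10 q-value of 11.2. The summit was 31 bp upstream of the gene start and within 2 bp of the centre of a CCAAT box that begins at −35 bp. A further box begins at −2 bp and runs across the gene start into the first exon, 33 bp from the other. Both read CCAAT on the gene strand, and no other gene start lay within 1 kb.

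Racgap1 and Ect2 encode proteins that bind each other at the spindle midzone. Racgap1 is a subunit of centralspindlin, and Ect2 is the exchange factor that activates RhoA for the contractile ring. Both had NF-Y-ChIP peaks whose summits lay on the gene start, and both had a fold enrichment below 6.75, the median of all 733 peaks. The Racgap1 peak (chr15:99651551-99651771, 221 bp) had a fold enrichment of 6.18, rank 429, and a −log10 q-value of 6.43. Its summit was 5 bp upstream of the gene start and was centred 5 bp from the only box in the 200 bp upstream, ATTGG at −12 bp. The Ect2 peak (chr3:27153812-27153997, 186 bp) had a fold enrichment of 5.50, rank 523, and a −log10 q-value of 3.36. Its summit fell on the first base of the gene, in the 5′ UTR of the first exon. The box nearest to it was not upstream but inside the exon, from 1 bp downstream of the first base and centred 3 bp from the summit. The 25 bases around it (chr3:27153863-27153887, minus strand) are shown because the upstream sequence does not reach them.
Ect2, box at the summit: acagagcgcgCCAATcagcatggct

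The upstream boxes of Ect2 begin at −96 and −55 bp, 41 bp apart, and the latter is 56 bp from the exonic box. All 3 boxes of Ect2 read CCAAT on the gene strand and all lie inside the peak. Between the 4 genes the boxes therefore differed in number and strand, while each peak had a box within 50 bp of its summit, as did 88.3% of the 732 NF-Y-ChIP peaks whose sequence was read. The noncoding gene 1700125G22Rik starts 148 bp upstream of Ect2 on the opposite strand, so the Ect2 peak is also by rule a peak of that gene.

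**Figure D2:**
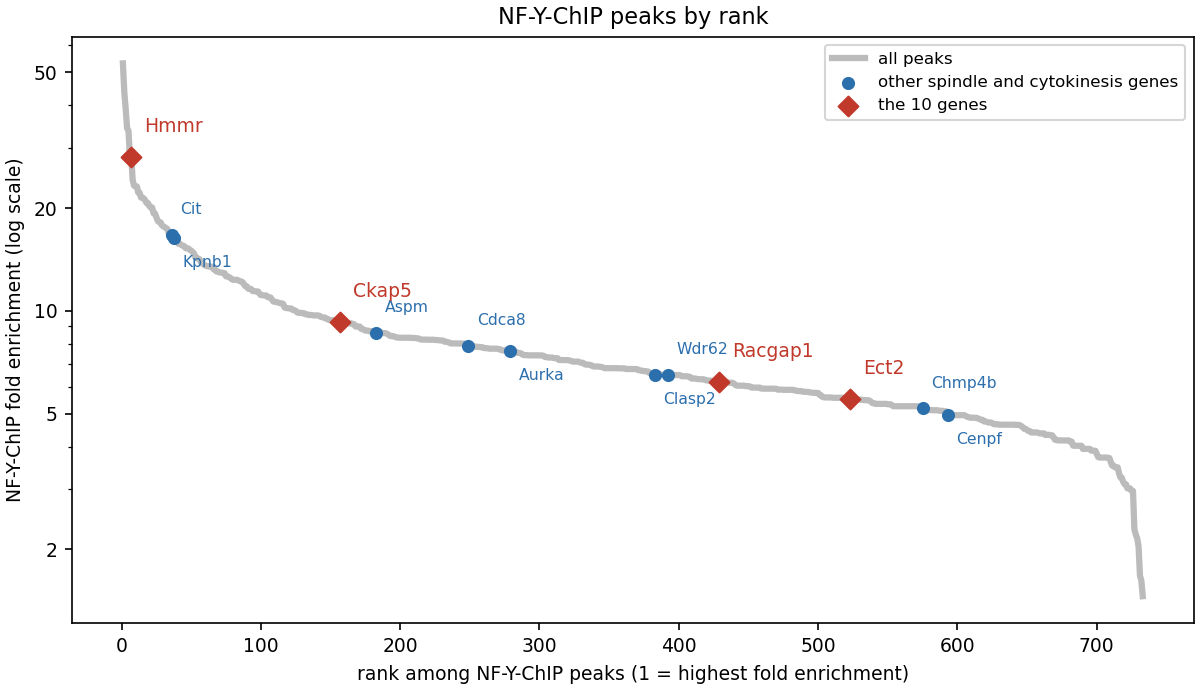
Fold enrichment (log scale) of all 733 NF-Y-ChIP peaks against their rank, with the peaks of the 10 genes as red diamonds and those of other spindle and cytokinesis genes as blue circles. Hmmr is at rank 7, while Ckap5, Racgap1 and Ect2 lie further down the list, at ranks 157, 429 and 523.

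The other 6 genes had no NF-Y-ChIP peak by the rule. The closest NF-Y-ChIP summit was 442 kb from the start of Tpx2, 503 kb from Ckap2l, 536 kb from Nusap1, 620 kb from Ckap2, 634 kb from Prc1 and 1022 kb from Anln. These genes differ in their promoters. Ckap2, Ckap2l and Prc1 have a CCAAT box within 200 bp upstream, and Tpx2, Nusap1 and Anln do not. The sequences of the former are shown because they carry the box without a called peak. They cover the 130 bp before the gene start in the same format (Ckap2 at chr8:22185820-22185949 and Ckap2l at chr2:129297213-129297342, both minus strand, and Prc1 at chr7:80294320-80294449, plus strand).
Ckap2: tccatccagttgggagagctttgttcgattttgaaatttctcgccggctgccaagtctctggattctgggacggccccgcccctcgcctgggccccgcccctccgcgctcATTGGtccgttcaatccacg
Ckap2l: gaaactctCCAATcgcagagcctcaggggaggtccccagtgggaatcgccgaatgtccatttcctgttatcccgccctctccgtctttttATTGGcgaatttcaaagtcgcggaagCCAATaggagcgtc
Prc1: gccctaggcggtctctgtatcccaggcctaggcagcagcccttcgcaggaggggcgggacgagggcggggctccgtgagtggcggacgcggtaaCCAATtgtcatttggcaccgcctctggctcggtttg

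Ckap2l, a microtubule-associated protein of the spindle also known as radmis, has 3 boxes, at −122, −40 and −14 bp, in both orientations and 82 and 26 bp apart. Ckap2, a related microtubule-stabilising protein, has 1 box at −20 bp. Prc1, which crosslinks antiparallel microtubules of the midzone, has 1 at −36 bp, close to where Ckap5 has its own at −35 bp. In the other group, the nearest upstream box of Tpx2, the spindle assembly factor that activates Aurora A, was at −373 bp. That of Nusap1, which bundles spindle microtubules near the chromosomes, was at −626 bp. Anln, the anillin scaffold of the contractile ring, has none in the 1 kb upstream.

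The number of boxes was set beside NF-Y-ChIP in the 13767 protein-coding genes marked by H3K4me3-ChIP no more than 1 kb from a TSS, of which 31.4% had a box in the 200 bp upstream of the gene start. Of the 10 genes, 7 had one. A summit of NF-Y-ChIP was found no more than 1 kb from a TSS in 1.86% of such genes without a box (Wilson 95% confidence interval 1.61 to 2.16%) and in 5.42% of those with 1 box (4.65 to 6.30%). The share was 19.2% with 2 boxes (16.9 to 21.8%) and 38.7% with 3 or more (34.2 to 43.4%), against 3.17% of all protein-coding genes. The intervals cover counting error over genes only. Among the 10 genes, Hmmr with 5 boxes and Ect2 with 2 had the peak, and Ckap2l with 3 did not. With 1 box each in this window, Ckap5 and Racgap1 had a peak and Ckap2 and Prc1 did not. The further boxes of Ckap5 and Ect2 at the gene start are inside their peaks but outside the window. Peaks were thus found by the rule in 4 of the 7 genes with a box, and in 12.6% of all marked protein-coding genes with a box. None of the 3 genes without a box in this window had a peak.

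**Figure D3:**
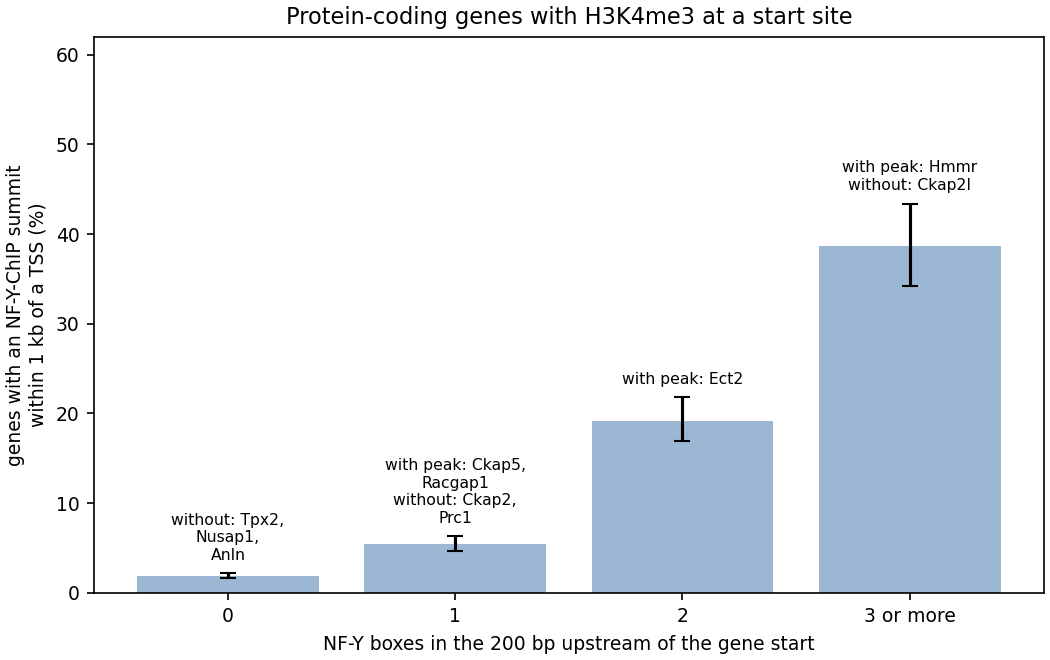
Bars show the percentage of protein-coding genes with H3K4me3 at a TSS that had a summit of NF-Y-ChIP no more than 1 kb from a TSS, by the number of CCAAT boxes in the 200 bp upstream, with Wilson 95% confidence intervals. The share rises from 1.86% without a box to 38.7% with 3 or more, and the names over each bar say which of the 10 genes have that number of boxes and whether they had a peak.

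The cell cycle homology region, TTTGAA or TTCGAA, is known from promoters of late cell cycle genes, often close to CCAAT boxes. On either strand of the 200 bp upstream, TTTGAA was in 5 of the 10 genes and in 7.84% of the 13767 marked genes. The 5 were Hmmr, Ckap5, Ckap2, Ckap2l and Ect2, all of which have a CCAAT box there. The match began 7 bp upstream of the gene start in Hmmr, 30 bp in Ckap2l, 45 bp in Ckap5, 101 bp in Ckap2 and 114 bp in Ect2. Its first base was 10 bp from that of the nearest box in Ckap5 and Ckap2l, 18 bp in Ect2, 28 bp in Hmmr and 81 bp in Ckap2. It was thus present in 3 of the 4 genes with an NF-Y-ChIP peak and in 2 of the 6 without. TTCGAA was in none of the 10 genes (1.31% of marked genes). The E2F sites TTTGGCGC and TTTCCCGC were also in none, with shares of 0.610% and 1.31% of marked genes. These are matches of letters in a window, not measured sites.

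H3K4me3-ChIP marked the start of all 10 genes, and the strongest peak of each overlapped the gene start. Its fold enrichment was 68.4 at Ckap5, 62.3 at Hmmr, 60.7 at Prc1 and 53.0 at Anln. It was 49.0 at Ect2, 48.0 at Ckap2, 46.3 at Racgap1, 45.2 at Tpx2 and 43.0 at Ckap2l, and the lowest was 23.4 at Nusap1. The median over the 10 genes was 48.5, and 9 of them were above 40.1, the median of the strongest peak in the 14352 protein-coding genes with one. The median was 55.6 for the 4 genes with an NF-Y-ChIP peak and 46.6 for the 6 without, but the ranges overlapped, since Prc1 and Anln were above Ect2 and Racgap1. The value of Hmmr is also that of a peak whose summit lay nearest a TSS of Nudcd2. The strongest NF-Y-ChIP peak was at Hmmr and the strongest H3K4me3-ChIP peak at Ckap5.

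**Figure D4:**
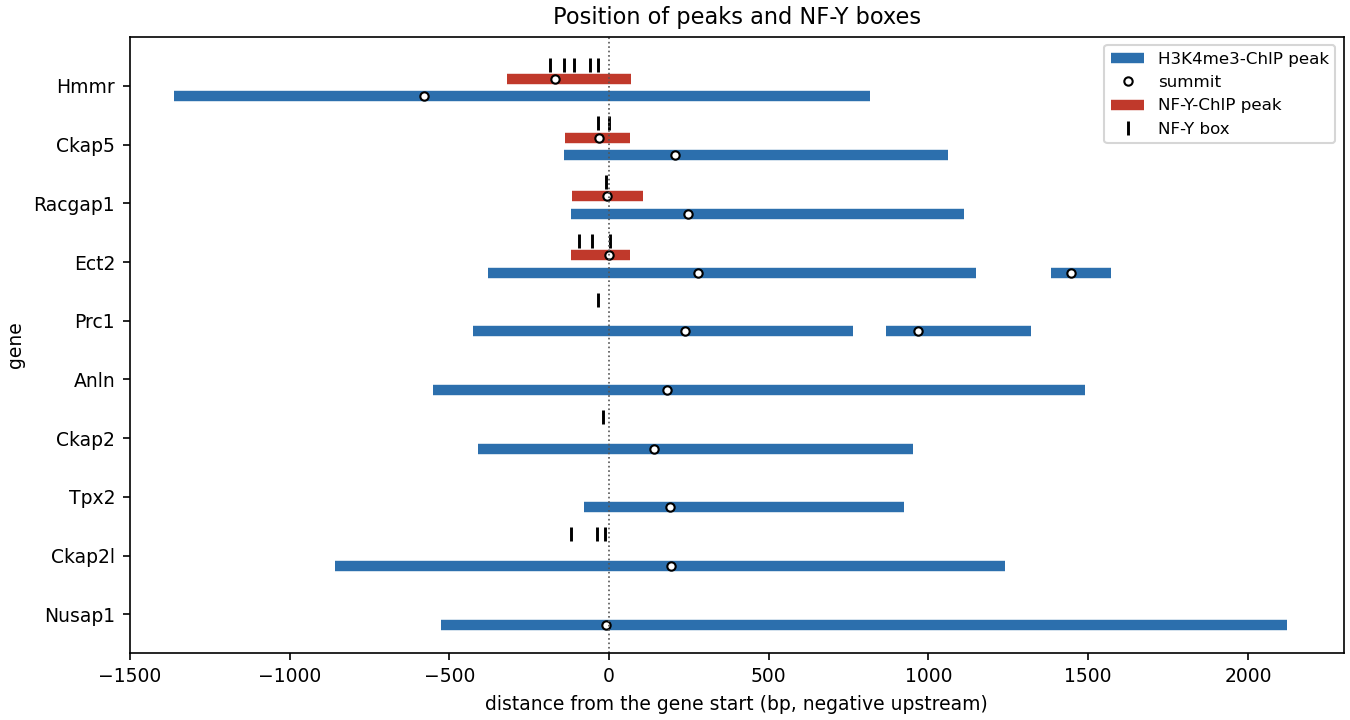
Position of NF-Y-ChIP peaks (red), H3K4me3-ChIP peaks (blue), their summits (circles) and the CCAAT boxes (ticks) around the start of each gene, in bp from the gene start (negative upstream). Boxes are drawn for the 200 bp upstream and the 100 bp around an NF-Y-ChIP summit. The second H3K4me3-ChIP peak of Ckap5, at 11097 bp, is outside the plot. The NF-Y-ChIP peaks lie wholly within the H3K4me3-ChIP peaks, each across the gene start, and most H3K4me3-ChIP summits lie downstream of it.

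All 4 NF-Y-ChIP peaks lay wholly inside an H3K4me3-ChIP peak, as did 68.9% of all 733, and the summits of the lists were apart. The H3K4me3-ChIP summit was downstream of the gene start in 8 of the 10 genes, from 140 bp in Ckap2 to 279 bp in Ect2. It was 8 bp upstream in Nusap1 and 580 bp upstream in Hmmr, where it lay inside Nudcd2, 56 bp downstream of one of the annotated TSSs of that gene. The NF-Y-ChIP and H3K4me3-ChIP summits of the same gene were 237 bp apart at Ckap5, 253 bp at Racgap1, 279 bp at Ect2 and 410 bp at Hmmr. At Ckap5 and Racgap1 the upstream edges of both peaks nearly met, at −137 and −140 bp and at −115 and −120 bp. Over the 10 genes the upstream edge of the strongest H3K4me3-ChIP peak ran from −78 bp at Tpx2 to −1361 bp at Hmmr. Besides Hmmr and Ect2, a neighbouring gene start within 1 kb was found for Ckap2l, 158 bp upstream (the noncoding Gm14023), and for Nusap1. The centromere gene Oip5 starts 171 bp inside Nusap1 on the opposite strand, and the H3K4me3-ChIP peak over both starts was the widest of the list (2647 bp). Widths of the strongest peaks ran from 1002 bp at Tpx2 to that value, with a median of 1448 bp, against 1397 bp for the strongest peak of protein-coding genes. Additional H3K4me3-ChIP peaks were found in introns of 3 genes, and all were weak. Their fold enrichment was 7.44 in Prc1 (968 bp from the gene start), 5.10 in Ckap5 (11097 bp) and 4.75 in Ect2 (1447 bp).

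The wider machinery was described with 52 other spindle and cytokinesis genes, from the chromosomal passenger complex and the augmin subunits to importins and factors of abscission. This list was also chosen with earlier results of these data known, so its counts are a description of the list. All 52 genes had an H3K4me3-ChIP peak, beside 65.4% of all protein-coding genes. The median fold enrichment of their strongest H3K4me3-ChIP peak was 52.8. NF-Y-ChIP was found for 9 of the 52 genes (17.3%), beside 3.69% of all protein-coding genes and 5.60% of those with H3K4me3. The 9 genes had a median fold enrichment of 7.63, compared with 7.72 for the 4 peaks of the 10 genes and 6.79 for protein-coding genes with a peak. The difference between 9 of 52 and 4 of 10 was not tested. The strongest were at Cit, the citron kinase of cytokinesis (16.7-fold, rank 36), and Kpnb1, importin beta (16.4-fold, rank 38), both below Hmmr, with summits 74 and 179 bp upstream of the gene start. The spindle pole genes Aspm (8.64-fold) and Wdr62 (6.49-fold), the kinase gene Aurka (7.63-fold) and the kinetochore gene Cenpf (4.95-fold) had summits between 3 and 110 bp upstream of the gene start. The peaks of Cdca8, the passenger complex subunit borealin (7.89-fold), of Clasp2, a microtubule plus-end protein (6.50-fold), and of Chmp4b, an abscission protein (5.18-fold), lay in introns. Their summits were 2.37, 71.1 and 25.5 kb from the gene start, but those of Cdca8 and Clasp2 were no more than 1 kb from another annotated TSS of the gene. All 9 had a CCAAT box within 50 bp of the summit, beside the 88.3% of NF-Y-ChIP peaks in general. Of the 25 other genes with a box in the 200 bp upstream, 7 had an NF-Y-ChIP peak and 18 did not. Among all marked protein-coding genes with a box, 12.6% had a peak by the rule. The 7 other genes with a box and a peak include Chmp4b, whose peak is not at the promoter that holds the box. Among the 5 of the 25 genes with 3 or more boxes, Cit, Aspm and Wdr62 had the peak. Aurkb, the passenger complex kinase, and Fam83d, a spindle protein, did not. Of all marked protein-coding genes with 3 or more boxes, 38.7% had a summit no more than 1 kb from a TSS.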

How the data were processed

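The peaks analysed were those of 1 NF-Y-ChIP library and 1 H3K4me3-ChIP library of mouse cortices at E13.5. Reads were trimmed by the authors (Trimmomatic) and aligned using Bowtie 2 (version 2.2.8 in the submitters' processing notes) to mm10, which is GRCm38, and called peaks with MACS2 (2.1.2) at p < 0.001 for NF-Y-ChIP or q < 0.05 for H3K4me3-ChIP. The study used the input as its negative control for ChIP, and whether MACS2 was run with it is not given in the sources used here. The deposited fold enrichment is a ratio of the summit signal to the local background. The deposited −log10 values are of the p-value and the q-value. The deposited score is 10 times one of these, rounded down, in every row. Values were used without rescaling, and positions are 1-based.

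Genes and TSSs were from GENCODE M21, and position 0 is the first base of the annotated gene. Boxes (CCAAT on either strand) were searched in the GRCm38 sequence in the 200 bp upstream of the gene start and within 50 bp of each summit. A rank counts peaks from the highest fold enrichment. RefSeq promoters (GRCm38.p6, 250 bp upstream to 50 bp downstream) matched 9 of the 10 symbols, all but Tpx2. The rule for named genes took all 10 members, genes with a TSS within 1 kb of a member's NF-Y-ChIP summit, and every gene of the wider list with an NF-Y-ChIP peak. Markers of the tissue check are named as well. Aurkb, Fam83d, Tacc3, Gm14023 and Oip5 were named after their values were seen. The members and lists were chosen with earlier results of these data known. A further cortical marker of the tissue check is not reported here. Functions were tested on simulated data. Python 3.11.15, pysam 0.24.0, SciPy 1.17.1, NumPy 2.4.6 and matplotlib 3.10.9 were used.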

Additional observations from a re-analysis of the deposited data

How the results depend on the processing

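Of 25 alternative settings for 7 results, 21 left the count or median within 1.5 times its value, and 4 did not. When only NF-Y-ChIP peaks at or above the median fold enrichment were used, 2 of the 10 genes kept a peak (Hmmr and Ckap5) and 5 of the 52 other genes did. When the extended consensus RRCCAATSR was required, 2 of the 4 peaks (Ckap5 and Racgap1) held it within 50 bp of the summit, and 4 of the 10 genes (Hmmr, Ckap2, Ect2 and Racgap1) held it in the 200 bp upstream. Both changes follow from stricter criteria. With a 1 kb or 10 kb limit, with q < 0.05 or with the summit required inside the region, the same 4 genes had NF-Y-ChIP. RefSeq promoters, an alternative chosen after seeing the data, gave the same 7 genes with a box, against 42.1% of 16522 protein-coding symbols. A search to 500 bp upstream added Tpx2. With 1 library per antibody, no replicate could be left out, and no depth is known.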

Other observations

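The base composition of the promoters varied over the list. The 200 bp upstream of the gene start had a GC content of 47.0% in Hmmr, the lowest, and 71.5% in Anln, the highest, and the median over the 13767 marked protein-coding genes was 60.5%. Tpx2 was at 50.5%, Racgap1 at 56.5%, Ckap2l at 57.5%, Ckap5 at 58.5%, Ckap2 at 59.0%, Ect2 at 61.5%, Nusap1 at 65.0% and Prc1 at 66.5%. The gene with the most boxes and the highest NF-Y-ChIP fold enrichment thus had the lowest GC content, and Anln, with no box in the 1 kb upstream, the highest, but Tpx2, at 50.5%, had no box in the 200 bp upstream either.

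At a 10 kb limit, 10 of the 52 other genes had an NF-Y-ChIP peak, the additional gene being Tacc3, which encodes a microtubule protein that acts together with Ckap5 on the spindle.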
